A study of Mus musculus with 2 samples.

Results

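The cells described here are the 124 cells with the highest share of Cyp3a11 transcripts among 1245 hepatocytes kept from a 3D culture in induction medium, out of 2436 kept cells in both media. Cyp3a11 is a cytochrome P450 that oxidises drugs, steroids and bile acids. A cell was kept with at least 500 genes and at most 25% of its UMIs (counted transcript molecules) from mitochondrially encoded genes, and the kept cells were ranked by Cyp3a11 UMIs over the total UMIs of the cell. The top 10% were selected on this measured value, so their Cyp3a11 level is a description and not a finding. The other 1121 induction cells are the comparison. Since all genes were read in the same cells and each medium had 1 library, ratios between the cells carry no test, and their 95% intervals cover counting error only. PCR copies were collapsed by UMI, but cells of 1 library are not replicates.

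Both libraries came from primary hepatocytes of C57BL/6 mouse liver grown in growth-factor reduced Matrigel, a basement membrane gel. The base of both media was William E medium with B27 and N2 supplements, 1.25 mM N-acetylcysteine, 100 mM nicotinamide, the ROCK inhibitor Y27632 (10 uM), the TGF-beta receptor inhibitor A83-01 (1 uM), 25 ng/mL EGF and 50 ng/mL HGF. Induction medium added 3 uM dexamethasone, a synthetic glucocorticoid, and expansion medium instead added 3 uM CHIR99021, a GSK3 inhibitor, and 100 ng/mL TNF. Neither the number nor the sex of the animals was given in the labels.

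Cyp3a genes are expressed in mature hepatocytes and are known for their response to xenobiotics. The xenobiotic receptors PXR (Nr1i2) and CAR (Nr1i3) bind their promoters and enhancers as partners of RXR (Rxra), and the glucocorticoid receptor (Nr3c1) acts on the same genes directly and through those receptors. Electrons for the reaction come from the reductase Por and from cytochrome b5 (Cyb5a), and the heme group is made by a pathway whose first enzyme in liver is Alas1.

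The promoters of Cyp3a11 and Cyp3a25 are shown because these were the Cyp3a genes with the most UMIs here. Each runs 5′ to 3′ on the gene's strand from 250 bases before to 50 bases after the start given by RefSeq, build GRCm38.p6, on the minus strand of chr5:145879805-145880104 and chr5:146009569-146009868. Capitals mark the nuclear receptor half-site AGGTCA and the glucocorticoid receptor half-site TGTTCT, searched on both strands, where TGACCT and AGAACA are the same letters on the other strand.
Cyp3a11: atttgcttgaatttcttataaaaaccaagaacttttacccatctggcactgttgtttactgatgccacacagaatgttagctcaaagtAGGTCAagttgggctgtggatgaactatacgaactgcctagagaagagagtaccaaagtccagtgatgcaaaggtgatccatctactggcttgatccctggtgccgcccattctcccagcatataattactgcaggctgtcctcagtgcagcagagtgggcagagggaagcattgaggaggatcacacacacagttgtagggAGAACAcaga
Cyp3a25: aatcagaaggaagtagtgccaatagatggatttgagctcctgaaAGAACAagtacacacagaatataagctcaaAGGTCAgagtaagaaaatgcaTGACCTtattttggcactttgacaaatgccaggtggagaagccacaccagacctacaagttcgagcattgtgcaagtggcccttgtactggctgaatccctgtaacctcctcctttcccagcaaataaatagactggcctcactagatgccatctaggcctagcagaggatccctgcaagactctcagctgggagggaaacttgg
In the Cyp3a11 promoter AGGTCA began 162 bases before the start, and a reversed TGTTCT began 40 bases after it. The Cyp3a25 promoter held AGGTCA at 176 and reversed at 155 bases before the start, and a reversed TGTTCT at 206 bases before it. The promoter of Cyp3a13 held neither. Of 32851 RefSeq promoters of this length, 16.3% held AGGTCA and 18.97% held TGTTCT on either strand, so a match is a description of the letters only.

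The Cyp3a11-high cells formed the upper end of a continuous range. Their Cyp3a11 UMIs per 10000 UMIs were 63.4 at the lowest, 88.4 at the median and 321 at the highest, from 15 to 155 Cyp3a11 UMIs per cell. The last cell inside the cut had 63.4 per 10000 (46 of 7261 UMIs) and the first outside had 63.2 (57 of 9014 UMIs). Within 10% of the cut lay 18 cells inside and 21 outside, so the class is a range and not a separate type. The other induction cells ran from 0 to 63.2 per 10000 with a median of 10.0, and 189 of the 1245 kept cells (15.2%) held no Cyp3a11 UMI. The 124 cells held 36.3% of the Cyp3a11 UMIs and 7.86% of all UMIs of the library. In the expansion library 76 of 1191 cells (6.38%) held a Cyp3a11 UMI, the highest cell stood at 3.22 per 10000, and 0 cells reached the cut.

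Depth differed between the compared cells. The Cyp3a11-high cells had a median of 5482.5 UMIs and 1832 genes, and the others 6936 UMIs and 2020 genes, with 6.99% and 6.84% mitochondrial UMIs. The summed depth was 723691 and 8478196 UMIs, so 3 UMIs, the floor used for a gene at 0, stood for 4.15 and 0.354 CPM (counts scaled to 1000000 summed UMIs). When the cut was made within each of 5 equal classes of total UMIs, the medians were 6654 and 6773 UMIs, and 97 of its 125 cells were among the 124. Of 4 barcodes found in both libraries, 0 were among these cells. Scrublet, a doublet caller, marked 2 of the kept cells, 0 of them among these cells, which is too few to show that it worked.

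The cells met the hepatocyte label. All 10 hepatocyte markers had UMIs in them, and their summed share per cell was 254 per 10000 at the lowest, 684 at the median and 1684 at the highest, against 12.8, 559 and 1792 in the others. All 6 macrophage and 5 lymphocyte markers were at 0 UMIs. Of 6 markers each, cholangiocytes had 2 above 0 (84.3 CPM summed, against 84.5 in the others), endothelial cells 2 (33.2 and 34.3 CPM), and stellate cells and fibroblasts 1, Rgs5 (153 and 182 CPM). Of 4 erythroid markers, Alas2 alone had UMIs (11 UMIs, 15.2 CPM, against 2.83 CPM).

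**Figure D1:**
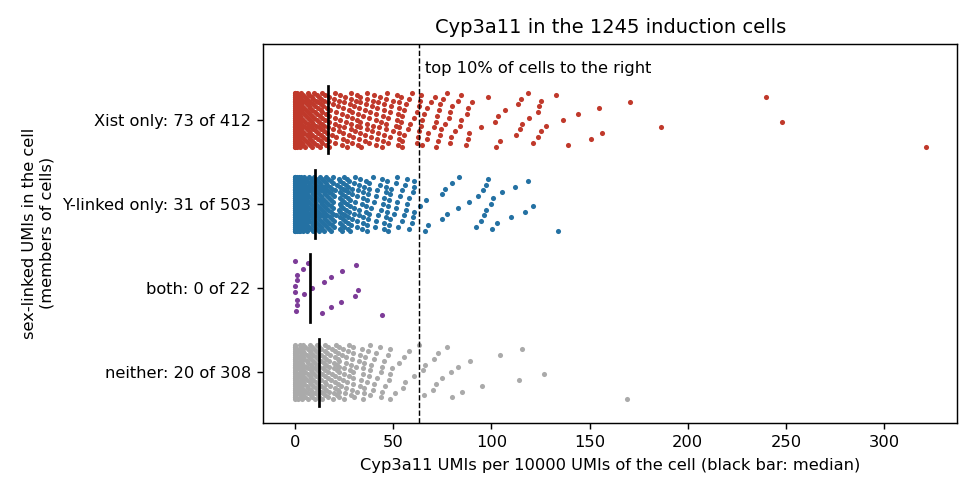
Cyp3a11 UMIs per 10000 UMIs of each kept induction cell (x axis), in 4 rows by the sex-linked transcripts found in the cell (Xist only, Y-linked only, both or neither); each point is 1 cell, the black bar is the median of a row and the dashed line is the cut at 63.4. Of the cells right of the line, 73 are in the row of Xist only, 31 in the row of Y-linked only and 20 in the row of neither.

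Cells with Xist, the RNA of the inactive X chromosome, were more frequent among the Cyp3a11-high cells. Xist without Y-linked UMIs (Ddx3y, Eif2s3y, Kdm5d, Uty) was found in 73 of 124 cells (58.9%, exact binomial interval 49.7 to 67.6) and in 339 of the 1121 others (30.2%, 27.6 to 33.0). Y-linked UMIs without Xist were found in 31 of 124 (25.0%, 17.7 to 33.6) and 472 of 1121 (42.1%, 39.2 to 45.1). Both kinds were found in 0 of 124 and 22 of 1121 cells, and 4.19% of the 525 cells with a Y-linked UMI held Xist. Free RNA and doublets cannot be told apart in these cells. With every cell thinned to 2000 UMIs, which left out 5 and 9 cells, the Xist shares were 54.6% and 29.8% and the Y-linked shares 11.8% and 17.2%. Seen from the other side, 17.7% of the Xist cells and 6.16% of the Y-linked cells were Cyp3a11-high. The plot of Cyp3a11 by sex-linked transcripts shows that the rows overlap, with medians of 17.0 and 10.1 per 10000. The split is not balanced between the compared cells, so values within Xist cells and within Y-linked cells are given beside the pooled ones further on.

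Of 2265 genes with at least 50 CPM over the kept induction cells, without Cyp3a11, 243 (10.7%) were at least 1.5-fold higher in the Cyp3a11-high cells with an interval excluding 1, and 233 (10.3%) were lower by the same rule. The shares of 10.7% and 10.3% are the background for the counts of each list below. The median log2 ratio of all 2265 genes was 0.01. With mitochondrial and ribosomal protein genes left out of the totals, the split was 219 higher and 422 lower of 3027 genes, around a median of -0.10. The plot of 30 levels and the plot of ratios by list show the genes described next. The Cyp3a, Cyp2d, Gstm, Sult2a, Serpina, Saa and Mup families have near-identical members, so the split of UMIs within each is uncertain.

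**Figure D2:**
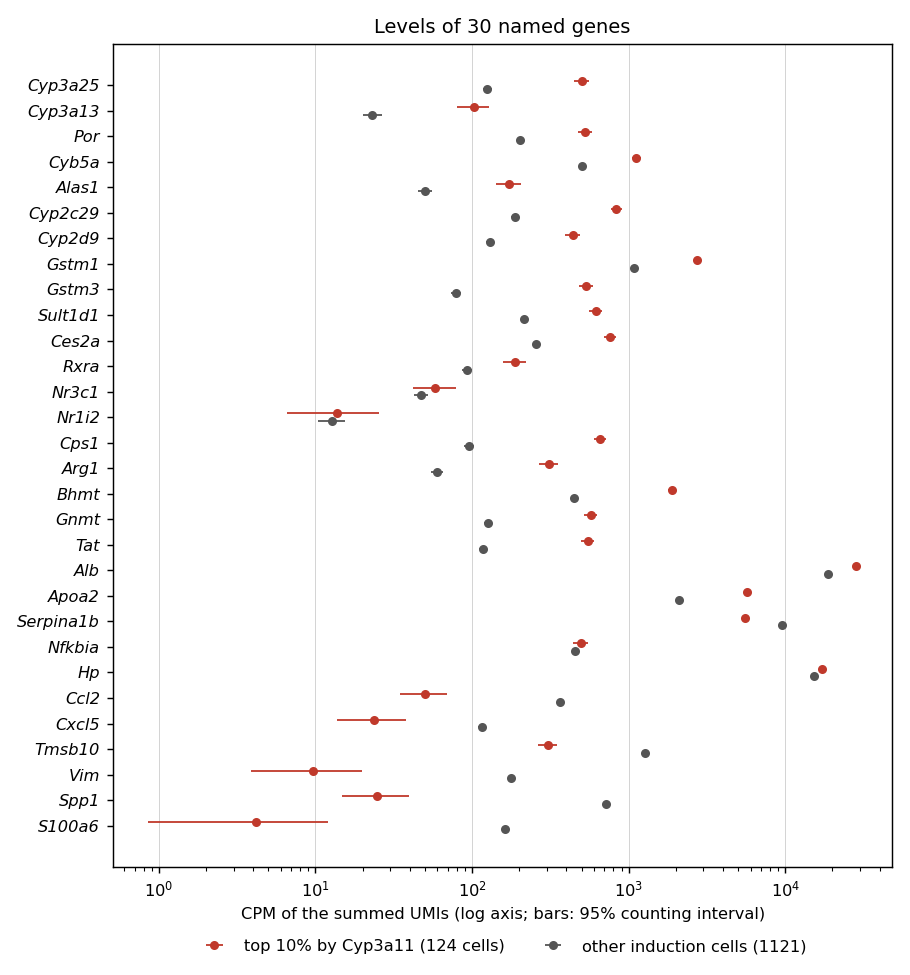
CPM of the summed UMIs (x axis, log scale) of 30 named genes in the 124 Cyp3a11-high cells (red) and the other 1121 induction cells (grey); bars are exact Poisson 95% intervals, which cover counting error only. The red points lie right of the grey ones for the enzymes from Cyp3a25 to Ces2a and from Cps1 to Tat, close to them for Nr1i2, Nr3c1, Nfkbia and Hp, and left of them from Ccl2 to S100a6.

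Of the 8 other Cyp3a genes, 4 had higher levels in the same cells, of which Cyp3a25 alone reached the level minimum. Cyp3a25, a liver P450 that lies next to Cyp3a11 in the Cyp3a cluster (chromosome 5, 145977194 to 146009618, GRCm38), ranged from 0 to 26.8 UMIs per 10000 with a median of 3.83, while the median of the other cells was 0 and their range overlapped. The summed level was 500 against 125 CPM (log2 ratio 2.00, 1.82 to 2.17). Cyp3a13, which lies apart from that cluster (chromosome 5, 137892932 to 137921619), stood at 102 and 23.1 CPM (log2 ratio 2.15, 1.74 to 2.54). Cyp3a59 had 25 and 102 UMIs, or 34.5 and 12.0 CPM (log2 ratio 1.52, 0.83 to 2.16). Cyp3a44 had 5 and 2 UMIs (log2 ratio 4.87, 2.26 to 8.26). Cyp3a16 had 0 and 1 UMI, and Cyp3a41a, Cyp3a41b and Cyp3a57 had 0 UMIs in both sets of cells.

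Of the receptors that act on Cyp3a genes, Nr1i2, Nr1i3 and Nr3c1 were below the level minimum, and Rxra was higher. Nr1i2 had 10 UMIs in the Cyp3a11-high cells and stood at 13.8 CPM, against 12.7 CPM in the others (log2 ratio 0.12, -0.98 to 1.05). Nr1i3 had 0 and 7 UMIs. Nr3c1 stood at 58.0 and 47.4 CPM (log2 ratio 0.29, -0.20 to 0.75). Rxra, the partner of Nr1i2 and Nr1i3, was the one receptor of 2 measured genes in the list of 21 receptors and coregulators. It passed the fold, at 188 and 92.7 CPM (log2 ratio 1.02, 0.75 to 1.28). The bile acid receptor Nr1h4, below the level minimum, stood at 76.0 and 40.7 CPM (log2 ratio 0.90, 0.46 to 1.32). At this depth a difference of Nr1i2 within its interval could not be seen.

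Of 8 measured genes that supply P450 enzymes with electrons or heme, 4 were higher and 0 lower (list median 0.53). The 4 were 50% of the list, against 10.7% of all measured genes. Por stood at 528 and 203 CPM (log2 ratio 1.38, 1.21 to 1.54) and Cyb5a at 1121 and 504 CPM (1.15, 1.04 to 1.26). Alas1 stood at 171 and 50.1 CPM (1.77, 1.47 to 2.07), and Pgrmc1, a heme-binding partner of P450 enzymes, at 844 and 517 CPM (0.71, 0.58 to 0.83). The values for Por show single cells of both kinds with high and low levels: its median was 5.20 UMIs per 10000 in the Cyp3a11-high cells and 1.51 in the others.

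Other enzymes of drug handling were higher as well. Of 9 measured P450 genes outside Cyp3a, 7 were higher and 0 lower (median 0.74). Cyp2c29, a P450 of drug and fatty acid oxidation, stood at 835 and 187 CPM (log2 ratio 2.16, 2.02 to 2.29), with medians of 5.34 and 0 and highest values of 44.3 and 69.7 UMIs per 10000, so the ranges overlap and the single highest cell was among the others. Cyp2d9 stood at 439 and 130 CPM (1.76, 1.57 to 1.94), Cyp2d10 at 381 and 140 CPM (1.45, 1.26 to 1.64), and Cyp26a1, which clears retinoic acid, at 178 and 74.7 CPM (1.26, 0.97 to 1.53). Not every P450 differed: Cyp1b1 stood at 101 and 97.7 CPM (0.05, -0.32 to 0.39).

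Of 16 measured conjugation enzymes, 9 were higher and 1 lower (median 0.83). The glutathione transferase Gstm3 stood at 533 and 78.8 CPM (log2 ratio 2.76, 2.57 to 2.94) and Gstm1 at 2751 and 1077 CPM (1.35, 1.28 to 1.42). Mgst1, Gsta3 and the sulfotransferase Sult1d1 stood at 1163, 1273 and 616 CPM against 549, 652 and 215 CPM. Gstm5 was the lower one, at 163 and 378 CPM (-1.21, -1.49 to -0.95). The sulfotransferases Sult2a1 and Sult2a2, which act on steroids and bile acids, had levels of 327 against 62.3 CPM and 188 against 52.0 CPM. Of 11 measured esterases, aldehyde and flavin oxidising enzymes, 8 were higher and 0 lower (median 0.97), among them the carboxylesterase Ces2a (760 and 258 CPM), Aldh1l1 (211 and 65.0 CPM), Aldh1a1 (438 and 188 CPM) and Fmo5 (421 and 194 CPM). Both measured drug and bile acid transporters were higher, the efflux pumps Abcc2 (200 and 121 CPM) and Abcc3 (106 and 51.7 CPM), and the uptake carrier Slco1a4, below the level minimum, stood at 81.5 and 20.4 CPM.

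**Figure D3:**
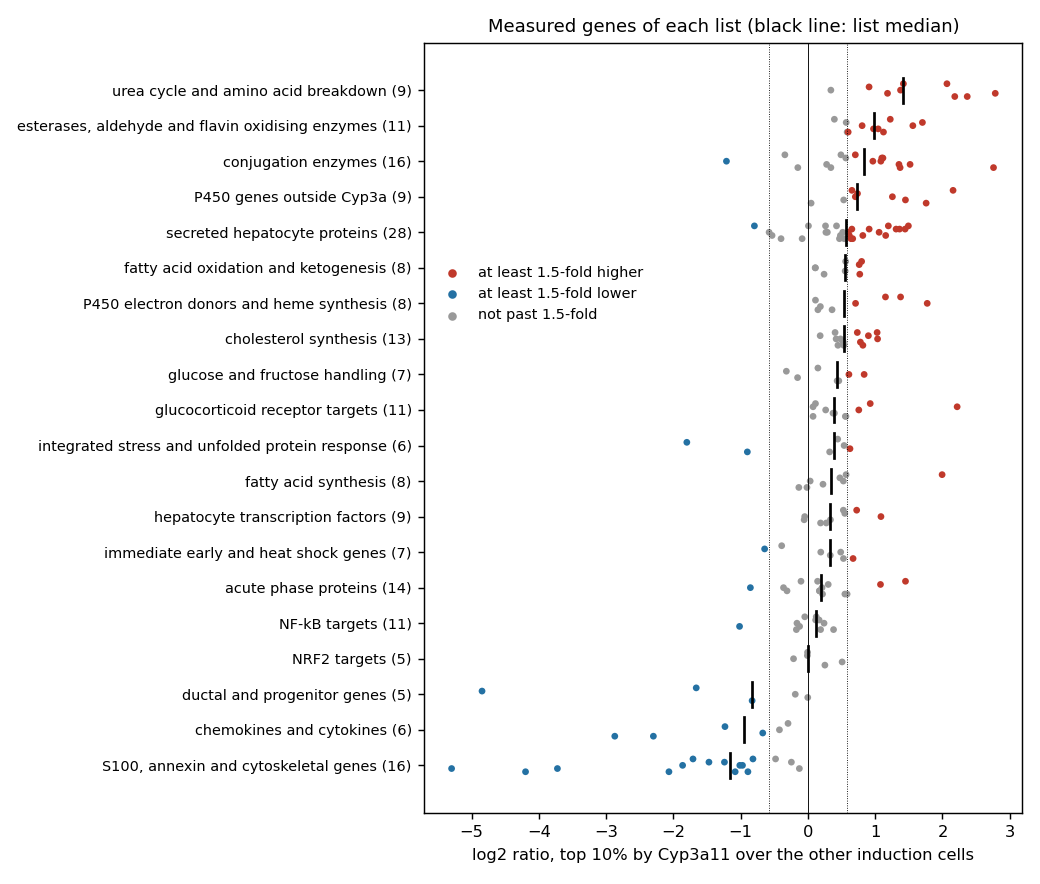
Log2 ratio of the Cyp3a11-high cells over the other induction cells (x axis) for each measured gene of the lists with at least 4 measured genes (y axis, number of genes in brackets); red and blue points are at least 1.5-fold higher and lower with an interval excluding 1, grey points are not, dotted lines mark 1.5-fold and the black bar is the list median. The medians run from -1.16 for S100, annexin and cytoskeletal genes to 1.42 for urea cycle and amino acid breakdown.

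Genes of nitrogen and amino acid metabolism had the highest median among the lists with at least 4 measured genes. Of 9 measured genes for urea formation and amino acid breakdown, 8 were higher and 0 lower (median 1.42, against 0.01 over all genes). Cps1, which feeds ammonia into the urea cycle (chromosome 1, 67123026 to 67231259), ranged from 0 to 60.5 UMIs per 10000 with a median of 3.13, and in the others from 0 to 55.7 with a median of 0. Its summed level was 658 and 95.4 CPM (log2 ratio 2.79, 2.62 to 2.95), the highest ratio among the named genes above the level minimum. Arg1, the last enzyme of the cycle, stood at 308 and 59.7 CPM (2.37, 2.13 to 2.60) and Asl at 227 and 87.3 CPM (1.38, 1.12 to 1.62). The methionine cycle enzymes Bhmt, Gnmt and Mat1a stood at 1882, 572 and 771 CPM against 449, 126 and 288 CPM. Ass1, a urea cycle enzyme below the level minimum, stood at 82.9 and 18.0 CPM (2.20, 1.74 to 2.64). After thinning, at least 2 genes of this list were found in 95.8% of the Cyp3a11-high cells (114 of 119) and 64.7% of the others (719 of 1112), and without thinning in 99.2% and 91.8%.

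Tat, which starts tyrosine breakdown and is a classical glucocorticoid target, stood at 547 and 118 CPM (log2 ratio 2.22, 2.05 to 2.39). Most other glucocorticoid targets differed little. Of 11 measured, 3 were higher (27.3%, against 10.7% of all measured genes) and 0 lower (median 0.39). These were Tat, the EGF receptor inhibitor Errfi1 (1689 and 889 CPM) and the phosphatase gene Dusp1 (269 and 160 CPM). Fkbp5 stood at 163 and 124 CPM (0.39, 0.11 to 0.67), Klf9 at 82.9 and 78.7 CPM (0.08, -0.33 to 0.46), Igfbp1 at 627 and 595 CPM (0.08, -0.07 to 0.21) and the metallothionein Mt2 at 1678 and 1553 CPM (0.11, 0.03 to 0.20). Tdo2, which opens tryptophan breakdown, had 15 UMIs in the 124 cells and 8 in the 1121 others (20.7 and 0.944 CPM; 4.46, 3.13 to 5.90).

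Secreted liver proteins were higher in part. Of 28 measured, 14 were higher and 1 lower (median 0.57), or 50% and 3.57%, against 10.7% and 10.3% of all measured genes. Albumin (Alb) stood at 28320 and 18693 CPM (log2 ratio 0.60, 0.58 to 0.62), with medians of 274 and 143 UMIs per 10000. The high-density lipoprotein genes Apoa1 and Apoa2 stood at 15566 and 5717 CPM against 8844 and 2101 CPM, Apoc3 at 2328 and 827 CPM, and the antithrombin gene Serpinc1 at 605 and 244 CPM. Serpina1b was the lower one, at 5511 and 9572 CPM (-0.80, -0.84 to -0.75), while transferrin (Trf) stood at 7462 and 9849 CPM (-0.40, -0.44 to -0.36). Of 9 measured hepatocyte transcription factors, 2 were higher (22.2%, against 10.7% of all measured genes). These were Cebpa (127 and 59.9 CPM) and Cebpb (257 and 156 CPM). Hnf4a stood at 352 and 241 CPM (0.55, 0.35 to 0.74).

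Lipid and sugar genes were higher in part. Of 13 measured genes of cholesterol synthesis, 6 were higher and 0 lower (median 0.53), among them Sqle (281 and 138 CPM). Of 8 measured genes of fatty acid synthesis, 1 was higher (12.5%, near the 10.7% of all measured genes), the lipogenic regulator Thrsp (435 and 109 CPM). The desaturase Scd1 stood at 3453 and 2398 CPM (log2 ratio 0.53, 0.47 to 0.59). Of 8 genes of fatty acid oxidation, 3 were higher and 0 lower (median 0.56). Of 7 genes of glucose and fructose handling, 2 were higher and 0 lower (median 0.43).

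Inflammatory genes did not move as 1 group. Of 11 measured NF-kB targets, 0 were higher and 1 lower (median 0.11), against 10.7% higher and 10.3% lower of all measured genes. The feedback inhibitor Nfkbia stood at 493 and 456 CPM (log2 ratio 0.11, -0.05 to 0.27). Of 6 measured chemokines and cytokines, 0 were higher and 4 lower (median -0.95). Ccl2, which attracts monocytes, stood at 49.7 and 364 CPM (-2.87, -3.39 to -2.40) and the neutrophil chemokine Cxcl5 at 23.5 and 116 CPM (-2.30, -3.08 to -1.61), while Cxcl1 stood at 1025 and 1259 CPM (-0.30, -0.41 to -0.19). Cxcl3 had 0 UMIs against 42.3 CPM, at least 10.2-fold lower. In the band of cells just under the cut, described further on, Ccl2, Cxcl5 and Cxcl3 stood at 64.2, 34.6 and 0 CPM. Of 14 measured acute phase proteins, 2 were higher and 1 lower (median 0.19), or 14.3% and 7.14%, near the shares over all measured genes. Crp stood at 1129 and 413 CPM (1.45, 1.34 to 1.56), haptoglobin (Hp) at 17202 and 15280 CPM (0.17, 0.14 to 0.20) and Saa3 at 4592 and 8313 CPM (-0.86, -0.91 to -0.81).

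Genes of the cytoskeleton and of the ductal state were among the 233 lower genes. Of 16 measured S100, annexin and cytoskeletal genes, 0 were higher and 13 lower (median -1.16). S100a6, a calcium-binding protein of spread and proliferating cells, had 3 UMIs in the 124 cells, from 0 to 1.97 per 10000, and reached 143 per 10000 among the others, with a median of 0 in both (4.15 and 163 CPM; log2 ratio -5.30, -7.58 to -3.75). The intermediate filament gene Vim stood at 9.67 and 178 CPM (-4.20, -5.52 to -3.15), and the actin-binding genes Tmsb10 and Tmsb4x at 304 and 281 CPM against 1274 and 1021 CPM. Sprr1a, a squamous envelope protein, and the tubulin gene Tuba1a had 0 UMIs, against 120 and 54.8 CPM in the others. They were at least 29.1-fold and at least 13.2-fold lower (floor of 3 UMIs over the 124 cells). In the band of cells just under the cut, described further on, Sprr1a and Tuba1a were also low, at 3.29 and 0.823 CPM. Of 5 measured ductal and progenitor genes, 0 were higher and 3 lower. Osteopontin (Spp1) ranged from 0 to 4.63 UMIs per 10000 in the Cyp3a11-high cells and up to 363 in the others, and stood at 24.9 and 716 CPM (-4.85, -5.60 to -4.19).

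Zonation, stress and sex-biased genes gave few measured members. Of 3 measured periportal genes 2 were higher, Cps1 and Arg1, and the 1 measured pericentral gene, glutamine synthetase (Glul), stood at 146 and 159 CPM (log2 ratio -0.12, -0.42 to 0.17). Both measured genes that are higher in male than female mouse liver were higher, Cyp2d9 and the urinary protein gene Mup20 (2870 and 1201 CPM, log2 ratio 1.26, 1.19 to 1.32). Xist cells were the more frequent ones, but among the Cyp3a11-high cells Cyp2d9 was higher in those with Y-linked UMIs, with values given further on. No gene of the list that is higher in female liver reached the level minimum, and its 13 genes summed to 8.29 and 0.944 CPM. Of 7 heat shock and immediate early genes 1 was higher and 1 lower (14.3% each, near the 10.7% and 10.3% of all measured genes). Of 6 endoplasmic reticulum and amino acid stress genes 1 was higher and 2 lower (16.7% and 33.3%), and of 5 NRF2 targets 0 were either. Hspa5, the chaperone of the endoplasmic reticulum, was the higher stress gene, at 712 and 462 CPM (0.62, 0.49 to 0.76). Of 2 measured fetal and imprinted genes, H19 was higher (log2 ratio 0.89, but -0.10 without the 5 cells that held 51.8% of its UMIs), and Igf2 stood at 576 and 541 CPM (0.09, -0.06 to 0.24).

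Transcripts of dividing cells were scarcer in the Cyp3a11-high cells than in the others together, but were also low in the cells just under the cut, as shown further on. The 23 G2/M genes summed to 135 and 401 CPM and the 17 S phase genes to 85.7 and 205 CPM. After thinning, at least 2 G2/M genes were found in 2 of 119 cells (1.68%, 0.204 to 5.94) and 101 of 1112 (9.08%, 7.46 to 10.9), and without thinning in 12.1% and 19.4%. The cyclin gene Ccnd2 stood at 24.9 and 146 CPM (log2 ratio -2.55, -3.31 to -1.88). Not every gene of the group was low: Cks2, a subunit of mitotic kinases, stood at 78.8 and 73.1 CPM (0.11, -0.31 to 0.50).

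Levels were also followed along the range of Cyp3a11. The cells were put in order as the 189 cells with 0 Cyp3a11 UMIs, 5 bands of 186 or 187 cells up to the cut, and the 124 cells above it. Cps1 stood at 8.27, 18.3, 53.4, 83.3, 199, 274 and 658 CPM in this order. Tat stood at 36.9, 67.8, 93.4, 129, 166, 259 and 547 CPM, and Cyp3a25 at 18.4, 51.9, 105, 129, 215, 297 and 500 CPM. These enzymes were higher in each step, and the step from the fifth band to the top cells was 2.40-fold for Cps1, 2.11-fold for Tat and 1.68-fold for Cyp3a25. S100a6 instead stood at 639, 214, 8.42, 0.744, 1.63, 0.823 and 4.15 CPM, and Spp1 at 2659, 922, 107, 49.8, 46.5, 37.0 and 24.9 CPM. Both were therefore high in the cells with 0 UMIs and in the lowest band, and S100a6 was no lower in the top cells than in the bands just under them. The summed S100, annexin and cytoskeletal list was lower in each step, at 14191, 9784, 4668, 4563, 3809, 3681 and 3005 CPM, as was Spp1. The G2/M genes summed to 434, 746, 471, 229, 221, 165 and 135 CPM in the same order. The S phase genes summed to 241, 340, 220, 151, 112, 109 and 85.7 CPM. Low levels of both lists were therefore shared with the bands just under the cut.

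Against the others that held a Cyp3a11 UMI, 193 genes (8.52%) were higher and 139 (6.14%) lower of 2264. The median of the S100, annexin and cytoskeletal genes was then -0.72 (10 of 15 lower) and that of the urea cycle and amino acid genes 1.21 (8 of 9 higher). Tmsb10 differed from S100a6 in that it was lower in every step, from 2449 CPM in the cells with 0 UMIs to 570 in the fifth band and 304 in the top cells. Scd1 was highest in the fifth band, at 3953 CPM, and not in the top cells. Alb stood at 9814 CPM in the cells with 0 UMIs and at 22029, 22065, 20881 and 26497 CPM in bands 2 to 5, against 28320 CPM above the cut. Nfkbia lay between 423 and 493 CPM in all 7 sets of cells. The share of Xist cells was 29.6%, 28.9%, 28.9%, 26.3%, 28.0%, 39.8% and 58.9% in the same order, and the median depth went from 7801 UMIs in the cells with 0 UMIs to 5482.5 in the top cells. The part of depth and of the Xist share in these gradients was not tested beyond the values within Xist cells and within Y-linked cells.

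**Figure D4:**
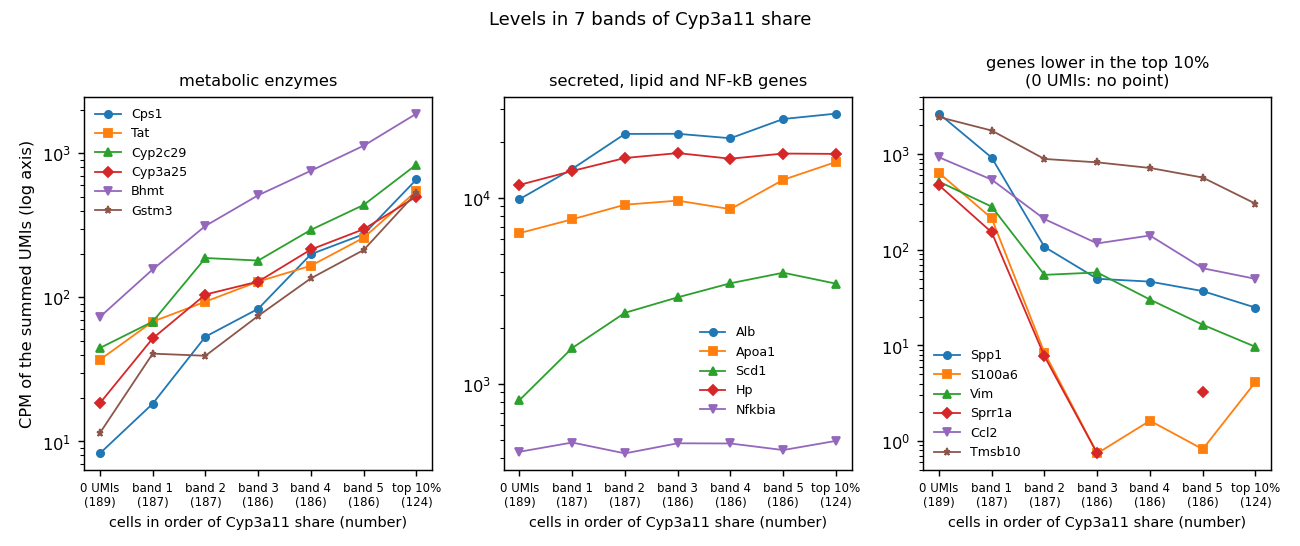
CPM of the summed UMIs (y axes, log scale) in cells ordered by Cyp3a11 share (x axis: cells with 0 UMIs, 5 bands and the top 10%, number of cells in brackets), for metabolic enzymes (left), secreted, lipid and NF-kB genes (middle) and genes lower in the top cells (right; a level of 0 has no point). Cps1 goes from 8.27 to 658 CPM over the 7 sets, Nfkbia stays between 423 and 493, and S100a6 is at 8.42 CPM or less from the second band on.

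Most of the ratios had the same direction among cells with Xist and among cells with Y-linked transcripts. Within Xist cells (73 over 339), 319 genes (12.8%) were higher and 295 (11.8%) lower of 2497 measured. Within Y-linked cells (31 over 472), 242 (11.1%) were higher and 266 (12.2%) lower of 2183. Of the measured urea cycle and amino acid genes, 10 of 10 were higher within Xist cells and 7 of 10 within Y-linked cells, with medians of 1.65 and 1.16. Of the P450 genes outside Cyp3a, 7 of 11 were higher within Xist cells, and 6 of 8 were higher and 1 lower within Y-linked cells. S100, annexin and cytoskeletal genes were lower in 14 of 16 and 12 of 16 cases. Cps1 had log2 ratios of 2.78 and 1.94, Tat of 1.89 and 1.70, Bhmt of 2.13 and 2.20, Gstm3 of 3.03 and 2.88, and Spp1 of -5.56 and -4.55. Cebpa (1.44 and -0.33) and Abcc2 (0.77 and -0.38) had opposite signs, with intervals that include 0 within Y-linked cells. H19, an imprinted RNA of fetal liver, had a pooled log2 ratio of 0.89 and ratios of 0.14 and 0.49 within the 2 kinds of cells. Whether the ratios differ between the kinds of cells was not tested, since no animal was identified.

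**Figure D5:**
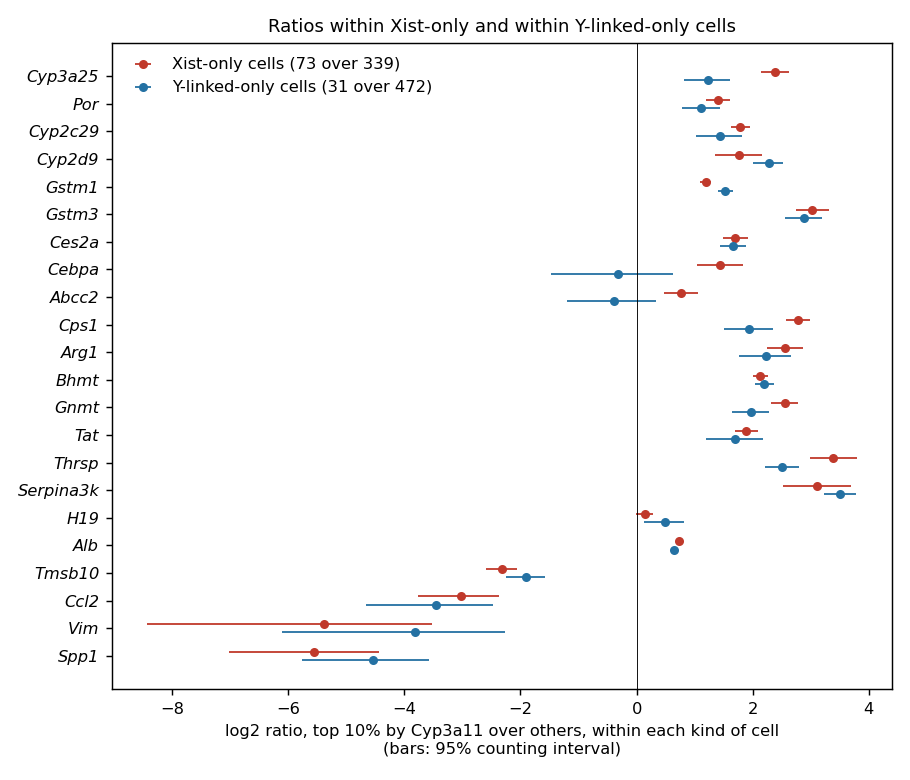
Log2 ratio of Cyp3a11-high over other cells (x axis) for 22 named genes, within Xist-only cells (red, 73 over 339) and within Y-linked-only cells (blue, 31 over 472); bars are exact 95% counting intervals. The 2 points lie on the same side of 0 for every plotted gene except Cebpa and Abcc2.

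The Cyp3a11-high cells were not uniform. Cyp3a11, which chose the cells, stood at 9769 CPM in those with Xist and 9001 CPM in those with Y-linked UMIs. These 2 levels are a description only. Other genes differed between the 2 kinds of cells. Cps1 stood at 995 CPM in the 73 Xist cells and 266 CPM in the 31 Y-linked cells (log2 ratio 1.90, 1.505 to 2.32), Tat at 891 and 194 CPM (2.20, 1.74 to 2.69), Cyp2c29 at 1223 and 284 CPM (2.11, 1.72 to 2.51) and Cyp3a25 at 650 and 280 CPM (1.22, 0.81 to 1.64). In the other direction, Cyp2d9 stood at 202 and 731 CPM (-1.85, -2.26 to -1.46), Serpina3k, a serine protease inhibitor, at 148 and 825 CPM (-2.48, -2.94 to -2.05), and Apoa1 at 10178 and 20411 CPM (-1.004, -1.07 to -0.94). Gstm1 (2773 and 2688 CPM) and Gstm3 (575 and 537 CPM) were close in both. Animal, sex and cell state cannot be told apart here.

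A few cells carried some of the ratios. The 5 Cyp3a11-high cells with the most UMIs of a gene held 13.3% of the summed UMIs for Cyp3a25, 14.7% for Por, 24.8% for Cps1 and 21.2% for Tat. They held 59.3% for Serpina3k (370 and 59.0 CPM), 60.9% for the estrogen sulfotransferase Sult1e1 (120 and 17.7 CPM), 49.8% for Thrsp and 51.8% for H19 (969 and 522 CPM). For these 4 genes the median Cyp3a11-high cell had 0 UMIs, so their summed levels describe a minority of the cells. Without the 5 cells, the log2 ratio was -0.10 for H19, against 0.89 with them, and 1.47 for Serpina3k, 1.52 for Sult1e1 and 1.08 for Thrsp, against 2.65, 2.76 and 1.99.

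Clusters computed without the Cyp3a genes placed the cells mainly in 2 of 7 groups. The cluster led by Tat, Cps1, H19 and Cyp2c29 held 66 of the 124 cells (53.2%), which were 29.7% of its 222 cells, and 97.7% of that cluster held Xist without Y-linked UMIs. The cluster led by Saa2, Saa1 and Orm1 held 43 (34.7%), which were 12.9% of its 333 cells, and 11.1% of that cluster held Xist without Y-linked UMIs. The cluster led by Lpin1 and Scd1 held 10, and 0 lay in the clusters led by Sox4 and Ccl2 or by Sprr1a, S100a6 and Spp1. Cluster numbers, and the genes that lead them, describe the same cells and are no independent evidence.

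The overlap with the cells highest in secreted protein transcripts was partial. The top 10% by summed share of the 30 secreted liver proteins shared 22 of 124 cells (17.7%, 11.5 to 25.6) with them, where the top 10% make up 10% of all kept cells. After thinning, 15 of 123 cells were shared (12.2%, 6.99 to 19.3), an interval that includes 10%. With the top 5% of both, 3 of 62 were shared (4.84%, 1.01 to 13.5), an interval that includes 5%. With the top 20% of both, 67 of 249 were shared (26.9%, 21.5 to 32.9), an interval above 20%. The sets without the shared cells differed in depth, with median totals of 5316.5 and 8726 UMIs. Among the 102 cells of each set that were not shared, Tat stood at 631 CPM in the Cyp3a11-high and 111 CPM in the secreted-high cells (log2 ratio 2.51, 2.19 to 2.85), Cps1 at 664 and 118 CPM, Gstm3 at 617 and 54.7 CPM and Por at 537 and 176 CPM. Alb stood at 24138 and 46586 CPM, Hp at 15169 and 28733 CPM and Saa3 at 4864 and 14608 CPM. The secreted proteins chose the second set, so the levels of members of that list are a description. Of the top 10% by other lists, the one for S100, annexin and cytoskeletal genes shared 0 of the 124 cells, G2/M genes 2, chemokines and cytokines 5, acute phase proteins 10, glucocorticoid receptor targets 13, fatty acid synthesis 16 and H19 alone 30. The intervals of acute phase proteins (3.94 to 14.3%), glucocorticoid receptor targets (5.70 to 17.3%) and fatty acid synthesis (7.56 to 20.1%) include 10%.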

How the data were processed

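Single cells were captured with the 10x Genomics Chromium protocol, per the labels' protocols, in 1 library per medium. The authors deposited UMI counts per gene and barcode, not normalized. The submitters' processing notes name Cell Ranger 2.1.1 and, as the build, mm10. For the annotation release and cell calling, settings were not given in the sources used here. Groups come from the medium named in the labels.

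Counts were summed over cells and scaled to CPM. Levels carry exact Poisson intervals, shares exact Clopper-Pearson intervals, and log2 ratios exact conditional binomial intervals, all at 95%. A gene was measured at 50 CPM over all kept induction cells, and past the fold at 1.5-fold with an interval excluding 1. No test was made and no p-value computed, since 1 library per medium leaves no replicates. The members, the 30 gene lists and the markers of the cell types were chosen with earlier results of these data known. Named genes are the 15 largest ratios in each direction, leaving out mitochondrial, ribosomal protein and unnamed gene models, for each list its most abundant gene and, at 20 CPM or more, its 2 largest ratios, and all Cyp3a genes, receptors, glucocorticoid targets and markers. Chosen after their values were seen were Asl, Mat1a, Cyp2d10, Cyp26a1, Cyp1b1, Mgst1, Gsta3, Sult1d1, Gstm5, Aldh1a1, Fmo5, Pgrmc1, Apoa2, Serpinc1, Saa3, Cebpb, Tmsb10, Tmsb4x and Ass1. Not every gene that met the rule is described.

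Thinning drew 2000 UMIs per cell with a fixed seed. Clusters were made by the Leiden method in scanpy 1.11.5 with igraph 0.11.9 (resolution 0.6, 2000 variable genes, 20 components, 15 neighbours). Doublets were not removed. Coordinates are from GENCODE M21 (28339 of 28692 gene IDs matched). On simulated Poisson counts of 2265 genes for this comparison, 100% of 50 genes raised by 1 on the log2 scale and 98% of 50 lowered by 1 met the fold rule, as did 0.484% of 2065 unchanged genes. The simulated counts had no spread between cells beyond counting error and no choice of cells by a measured gene. These shares therefore check the rule under counting error only and give no error rate for the genes called here.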

Additional observations from a re-analysis of the deposited data

How the results depend on the processing

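No paired analysis was possible because each medium has 1 library, both numbered 1, and no test was made. Medians below are log2 ratios of the 124 cells over the others. The cause of each change was not tested, except where fewer genes were measured. With a minimum of 10 CPM, 650 genes were higher and 495 lower, with 100 CPM 136 and 137, and with a 2-fold rule 74 and 63. Without mitochondrial and ribosomal protein genes in the totals 422 genes were lower, and against others with a Cyp3a11 UMI 139. The urea cycle and amino acid median (1.42) was 1.64 with at least 1000 genes and at most 10% mitochondrial UMIs per cell, 1.15 without mitochondrial and ribosomal genes, 1.74 at 100 CPM, 1.65 in Xist cells and 1.16 in Y-linked cells. The secreted protein median (0.57) was 0.41 for the top 5%, 0.64 within 5 depth classes, 0.44 after thinning, 0.47 without mitochondrial and ribosomal genes, 0.50 with equal weight per cell and 0.42 against others with a Cyp3a11 UMI. The P450 median (0.74) was 1.09 at 100 CPM, 1.06 in Xist cells and 1.01 with the top 10% taken within Xist cells. The S100, annexin and cytoskeletal median (-1.16) was -1.47 at 10 CPM, -0.72 against others with a Cyp3a11 UMI and -1.72 with the top 10% within Xist cells. The chemokine median (-0.95) was -2.18 in Y-linked cells, -0.54 with the top 10% within Xist cells and -1.996 within Y-linked cells. After thinning and ranking anew, 12.2% of the top cells held Y-linked UMIs.

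Of 1840 alternative values of 115 named genes, 7 changed sign. Abcc2 was -0.38 and Cebpa -0.33 in Y-linked cells, and -0.085 and -0.017 with the top 10% within Y-linked cells. With the top 10% within Xist cells, Serpina3k was -1.22, H19 -0.19 and Fbp1 -0.78. Many more values were classed as changed in size but not in sign. Of the 115 genes these were 72 in Y-linked cells, 53 in Xist cells, 59 after thinning and 56 against others with a Cyp3a11 UMI. They were 0 without a cell filter, without Cyp3a11 in the totals, relative to the median gene and without Scrublet doublets. The cuts within Xist and within Y-linked cells were chosen after seeing the data. Genes with few UMIs in the 124 cells, such as Nr1i2, are limited by depth.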
